A study of Mus musculus with 8 samples.

Results

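The 10 genes described here are the osteoclast-inducing cytokine Tnfsf11 (RANKL), its soluble decoy receptor Tnfrsf11b (osteoprotegerin), its receptor Tnfrsf11a (RANK) and 7 genes of mature osteoclasts, namely Oscar, Calcr, Ctsk, Acp5, Atp6v0d2, Dcstamp and Ocstamp. They were looked up by name among the 49315 genes of the count files, and all 10 were found. Dcstamp and Ocstamp are listed there under the older symbols Tm7sf4 and 4833422F24Rik and were matched through RefSeq synonyms.

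RNA-seq was performed on 7 populations of mouse bone marrow stromal cells, called clusters 1 to 7 (C1 to C7 where values are listed), and on 1 input sample of bone marrow cells. The clusters were first defined in a single-cell map of marrow cells positive for PDGFRα and Sca-1. They were then isolated by FACS from cells lacking CD31, CD45 and Ter119, with combinations of antibodies against CD24, CD39, CD54, Sca-1 and Ly-6C. Every library is labelled as wild type C57BL/6J marrow stroma at 6 weeks after birth, whereas the study's methods name C57BL/6JJcl mice. No treatment is named, and how the input cells were selected is not given in the sources used here. The sorted populations were rare, their gates rest on surface antigens alone, and the sources used here do not say how many mice went into a library.

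Each population was measured as 1 library. No difference between populations therefore has a replicate check, and every comparison below is between libraries. Levels are given as RPKM, the reads on a gene per kilobase of its exons and per 1e6 reads counted on all genes. The intervals in parentheses are exact 95% intervals of the counts (Clopper-Pearson), or of the ratio of 2 counts, and cover counting error only. The total count was 24205863 in C1, 25349917 in C2, 27102715 in C3 and 32549319 in C4. It was 12833648 in C5, 31669132 in C6, 33238133 in C7 and 20162876 in the input.

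RANKL is a membrane-bound or shed cytokine of the TNF family that stromal, osteoblastic and osteocytic cells present to monocyte-lineage precursors. Bound to RANK on the precursor, it drives osteoclast formation through NF-κB, Fos and NFATc1, and osteoprotegerin, secreted by the same stromal compartment, intercepts it. Ctsk, Acp5, Atp6v0d2, Dcstamp, Ocstamp, Oscar and Calcr are used as marker genes of the osteoclast, although Ctsk is also known to be expressed in some periosteal and stromal cells.

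A pair of libraries stood apart from the rest before any of these genes was considered. In the C5 library, 34.8% of all counts came from 3 abundant loci (Rn18s-rs5, Lars2 and mmu-mir-689-2), against 10.4% in C2, 1.91% in C1 and 0.274% in C7. Haemoglobin genes took a further 5.21% of the cluster 5 counts, against 0.0523% in the input. The input library had at least 3 counts on 67.8% of 858 olfactory receptor genes, which marrow cells are not expected to use, whereas this share was between 2.10% and 28.0% in the sorted libraries. The 95th percentile of these olfactory genes in the input was 2.75 RPKM, and a level below it was read as not distinguishable from background in that library. In the sorted libraries this percentile lay between 0.0112 RPKM in cluster 6 and 0.232 RPKM in cluster 5, and was 0.0213 RPKM in cluster 7.

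The labelled cell type was checked against defining markers. Col1a1, the main collagen chain of bone, ranged from 1962 RPKM in cluster 4 to 15952 RPKM in cluster 6, and was 691 RPKM in the input. Pdgfra, the receptor used to define the starting population, was 28.1 RPKM in C1, 4.37 in C2, 18.0 in C3, 19.8 in C4, 7.51 in C5, 7.44 in C6, 26.4 in C7 and 14.1 in the input. With total counts, Pdgfra, Lepr, Cxcl12 and Pdgfrb were higher in the input than in clusters 2 and 6. For Pdgfra and Pdgfrb this does not hold in both clusters with TMM factors. With total counts the input was also above clusters 1, 3 and 5 for Lepr, cluster 3 for Cxcl12 and Pdgfrb, and cluster 5 for Pdgfra. Clusters 4 and 7 were above the input for all 4 genes. Stromal markers were therefore present in all 7 sorted libraries, and the osteocyte gene Dmp1 was highest in cluster 6, at 415 RPKM, and in cluster 3, at 203 RPKM. Blood-cell transcripts were present in each of them as well, although CD45+ and Ter119+ cells had been gated out: the granulocyte gene S100a9 lay between 4834 RPKM in C3 and 11033 RPKM in C5, and the erythroid gene Hba-a1 reached 30376 RPKM in C5.

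The promoters of the ligand and of the osteoclast genes Ctsk and Oscar are shown here because they alone hold a match to the TATA box (Tnfsf11) or to the PU.1 core (Ctsk and Oscar). The 250 bases before the transcription start in RefSeq (GRCm38.p6) are printed 5′ to 3′ on the strand of the gene, with matches to the searched motifs in capitals.
Tnfsf11, chr14:78308044-78308293, minus strand: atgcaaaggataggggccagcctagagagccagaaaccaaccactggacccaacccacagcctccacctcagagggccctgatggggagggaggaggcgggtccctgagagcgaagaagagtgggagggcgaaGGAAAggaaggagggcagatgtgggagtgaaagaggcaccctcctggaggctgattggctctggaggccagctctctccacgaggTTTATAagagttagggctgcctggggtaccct
Ctsk, chr3:95498960-95499209, plus strand: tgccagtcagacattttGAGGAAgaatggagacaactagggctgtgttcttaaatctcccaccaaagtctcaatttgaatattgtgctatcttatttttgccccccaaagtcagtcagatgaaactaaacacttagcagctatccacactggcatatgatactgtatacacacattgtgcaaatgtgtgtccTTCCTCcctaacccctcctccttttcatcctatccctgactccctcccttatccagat
Oscar, chr7:3616158-3616407, minus strand: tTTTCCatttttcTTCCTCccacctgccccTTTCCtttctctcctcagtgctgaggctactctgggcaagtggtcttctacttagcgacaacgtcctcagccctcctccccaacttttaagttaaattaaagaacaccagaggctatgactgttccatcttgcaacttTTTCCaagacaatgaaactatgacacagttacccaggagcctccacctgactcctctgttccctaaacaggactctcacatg
Positions are counted back from the transcription start and give the first base of a match. The Tnfsf11 window holds 1 match to TATAAA, on the reverse strand (TTTATA) at position -32, and 1 match to GGAAA, the core of NFAT sites, at -117. The Ctsk window holds GAGGAA, the core of sites for the myeloid factor PU.1, in reverse (TTCCTC) at -58 and forward at -233, but no GGAAA. The RefSeq start of Ctsk lies upstream of the start in the count files. The window of Oscar, whose receptor gives the co-stimulatory signal of osteoclast precursors, holds GAGGAA in reverse at -237 and GGAAA in reverse (TTTCC) at -249, -220 and -82.
RefSeq windows were found for 6 of the 10 genes (9 windows, with 3 for Acp5 and 2 for Calcr), and not for Tnfrsf11b, Atp6v0d2, Dcstamp and Ocstamp. On either strand, GGAAA was in 6 of the 9 windows, against 55.6% of 32851 windows of all genes. The corresponding values were 2 of 9 against 23.3% for GAGGAA and 1 of 9 against 12.4% for TATAAA. None of the 9 windows held TGTGGT (RUNX), TGANTCA (AP-1) or CACGTG (E-box), which were in 14.0%, 6.75% and 6.02% of all windows. These are matches of short letters in a fixed window, and occupancy was not measured.

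Tnfsf11 was highest in C7 and C4 and lowest in C3. The gene lies on the minus strand at chr14:78277445-78308043 (GRCm38, ENSMUSG00000022015), with 2236 bases of exon. Its level was 4.91 RPKM in C1, 2.95 in C2, 1.27 in C3, 8.78 in C4, 4.36 in C5, 1.98 in C6, 15.3 in C7 and 1.60 in the input. These values rest on 266, 167, 77, 639, 125, 140, 1136 and 72 reads, in the same order. Cluster 7 was thus above every other library, clusters 1 and 5 lay close together in the middle, and clusters 3 and 6 were the lowest sorted libraries. The level in C7 was 1.74 times that in C4 (1.58 to 1.92) and 12.0 times that in C3 (9.55 to 15.4). Cluster 1 and cluster 5 could not be separated by counting (ratio 1.13, 0.909 to 1.41), whereas each other step of the order, from cluster 4 to 1, 5 to 2, 2 to 6 and 6 to 3, exceeded its counting interval. When libraries were scaled by TMM factors (edgeR) rather than by total counts, cluster 5 (5.89 RPKM) came before cluster 1 (4.45 RPKM), and the rest of the order of Tnfsf11 among sorted libraries held. Cluster 6 was 1.24 times the input for Tnfsf11 with total counts and 2.55 times with TMM factors, and cluster 3 turned from 0.796 times the input to 1.29 times. In the input, 12.7% of the olfactory genes were above Tnfsf11, so its level there was within background.

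Tnfrsf11b had a different order, with clusters 6 and 3 at the top. It lies on the minus strand at chr15:54250619-54278484 (ENSMUSG00000063727), with 2818 bases of exon. Its level was 13.8 RPKM in C1, 24.1 in C2, 73.3 in C3, 46.5 in C4, 9.21 in C5, 95.6 in C6, 24.4 in C7 and 72.7 in the input. The sorted libraries with the least Tnfsf11, clusters 3 and 6, were those with the most Tnfrsf11b, and cluster 4 was high for both genes. Cluster 6 exceeded cluster 3 by 1.30 times (1.26 to 1.35) and cluster 5 by 10.4 times (9.31 to 11.6), the latter falling to 6.02 times without the abundant loci. Clusters 7 and 2 did not differ beyond counting error (ratio 1.01, 0.95 to 1.08). The same 2 libraries were highest for the sum of 6 osteoblast markers, at 30627 RPKM in C6 and 21386 in C3. This sum was at most 10385 RPKM in the other sorted libraries. In the input it was 905 RPKM, where Tnfrsf11b was 72.7 RPKM. The part of osteoblastic cells in the Tnfrsf11b values was not tested. No library had fewer than 333 reads on Tnfrsf11b. The lowest place belonged to cluster 5 with total counts and with TMM factors, and to cluster 1 with DESeq2 size factors or with the abundant loci left out of the totals (together with haemoglobin and mitochondrial genes).

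The ratio of the ligand to its decoy within a library does not depend on how libraries are scaled to one another. Tnfsf11 relative to Tnfrsf11b was highest in C7, at 0.628 (0.584 to 0.674), followed by C5 at 0.473 (0.382 to 0.583) and C1 at 0.356 (0.309 to 0.408). It was 0.189 (0.174 to 0.205) in cluster 4 and 0.122 (0.104 to 0.144) in cluster 2. It was 0.0207 (0.0174 to 0.0244) in cluster 6 and 0.0173 (0.0137 to 0.0217) in cluster 3. In the input the reads gave 0.0220, which is at most an upper limit, since Tnfsf11 was within background there. The decoy transcript thus exceeded the ligand transcript per exon length in all 8 libraries, from 1.59 times in cluster 7 to 57.7 times in cluster 3. The ratio in C7 was 36.2 times that in C3, 30.4 times that in C6 and 3.32 times that in C4. Cluster 4 came directly after cluster 7 for Tnfsf11, but after clusters 7, 5 and 1 for the ratio. The intervals of clusters 5 and 1 overlapped, as did those of clusters 6 and 3.

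**Figure D1:**
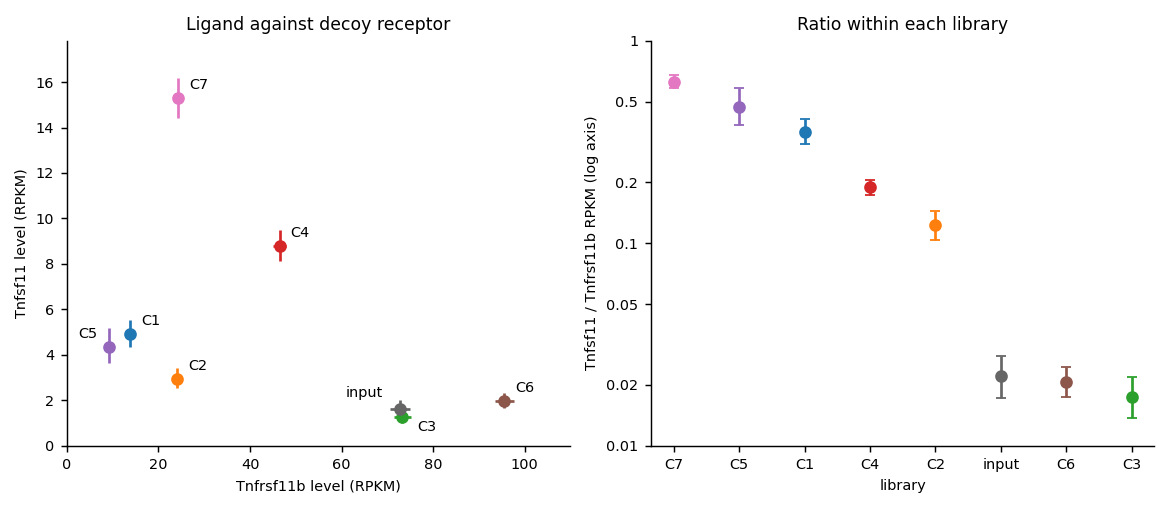
Tnfsf11 and Tnfrsf11b in the 8 libraries, 1 library per population. Left, level of Tnfsf11 against that of Tnfrsf11b, both in RPKM; right, their ratio on a log axis, ordered from highest to lowest; error bars are 95% counting intervals. Cluster 7 sits alone at 15.3 RPKM of Tnfsf11, and clusters 3 and 6 sit apart from the other sorted libraries at ratios of 0.0173 and 0.0207; the input point, at 0.0220, rests on a Tnfsf11 level within background.

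The signalling receptor Tnfrsf11a stayed below 1 RPKM in all sorted libraries. It lies on the plus strand at chr1:105780718-105847981 (ENSMUSG00000026321). Its level was 0.242 RPKM in C1, 0.0132 in C2, 0.0555 in C3, 0.169 in C4, 0.286 in C5, 0.0317 in C6, 0.322 in C7 and 1.91 in the input. The reads behind these values were 35, 2, 9, 33, 22, 6, 64 and 231. All sorted libraries were below the input, which was 5.95 times above cluster 7 (4.49 to 7.98) with total counts. The input was 3.10 times above cluster 5, then the highest, with TMM factors, 2.99 times with DESeq2 size factors and 3.83 times without the abundant loci. However, 9.56% of the olfactory genes were above Tnfrsf11a in the input, so that level is within background too. Its levels in clusters 2 and 3 were also below the 95th percentile of olfactory genes in those libraries (0.0177 and 0.0783 RPKM). C7 and C5 were not separated by counting (ratio 1.12, 0.683 to 1.92), and C5 came before C7 for Tnfrsf11a with TMM factors, with DESeq2 size factors and without the abundant loci.

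Oscar, the collagen-binding co-receptor, stayed below 1 RPKM in every library. Its level was 0.134 RPKM in C1, 0.0427 in C2, 0.220 in C3, 0.133 in C4, 0.127 in C5, 0.154 in C6, 0.391 in C7 and 0.295 in the input. These are 2 to 24 reads, and no step between neighbours in the order of Oscar exceeded counting error, while cluster 7 was 9.15 times above cluster 2 (2.27 to 79.9). In the input, 42.0% of the olfactory genes were above Oscar, and its cluster 5 level was below their 95th percentile in that library. Calcr, the calcitonin receptor and a marker of the mature osteoclast, had no read in clusters 1 to 4. If a count of 0 is taken to allow up to 3 reads, the limit is 0.0317 RPKM in C1, 0.0303 in C2, 0.0283 in C3 and 0.0236 in C4. The upper ends of the exact 2-sided intervals are somewhat higher, from 0.0290 RPKM in C4 to 0.0390 RPKM in C1. It was 0.0996 RPKM in C5, 0.0161 in C6, 0.0461 in C7 and 1.19 in the input, from 5, 2, 6 and 94 reads. The input was 12.0 times above cluster 5 (4.95 to 37.7) for Calcr. This fold was 5.54 with TMM factors, 5.36 with DESeq2 size factors and 6.86 without the abundant loci. However, 17.0% of the olfactory genes were higher than Calcr in the input. The cluster 5 level was also below the 95th percentile of olfactory genes in that library, 0.232 RPKM. Neither level of this fold was thus distinguishable from background.

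**Figure D2:**
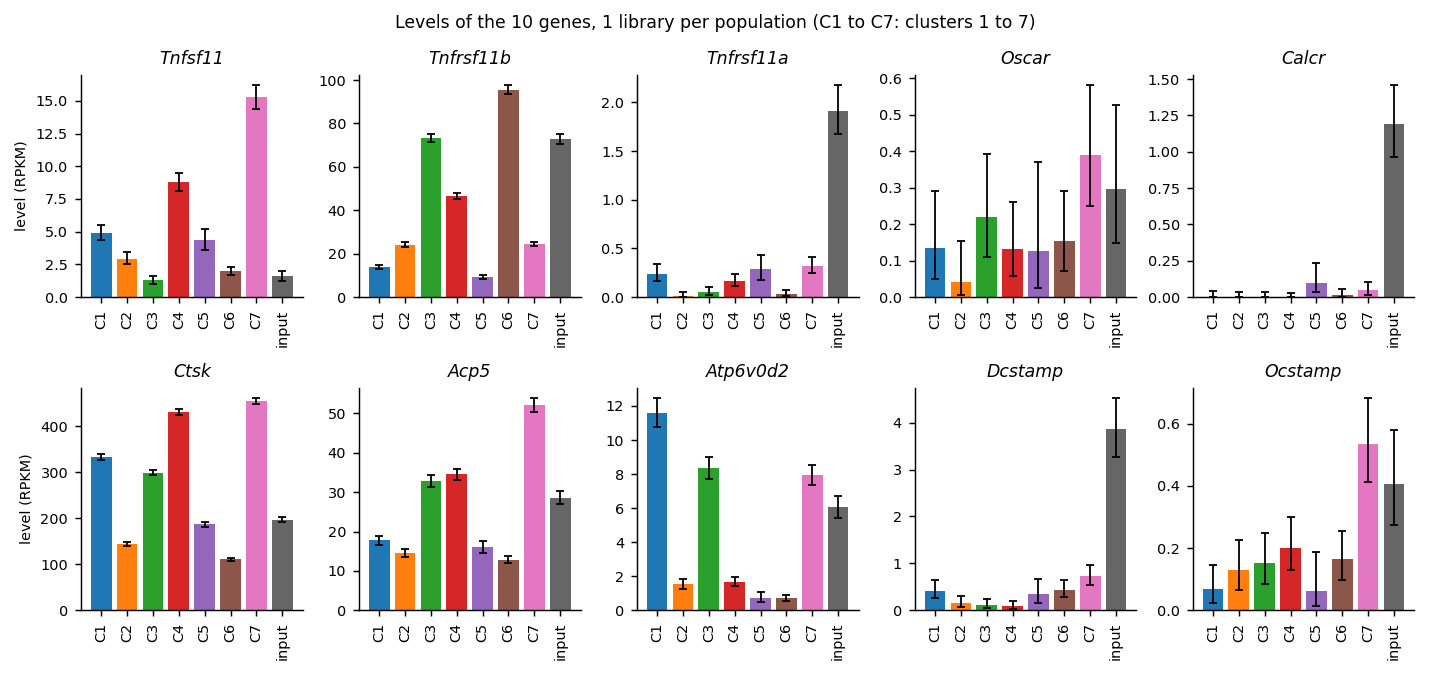
Level (RPKM, linear axis from 0, a separate scale for each gene) of the 10 genes in clusters 1 to 7 (C1 to C7) and the input. Bars are single libraries and error bars are 95% counting intervals. With total counts, cluster 7 has the highest bar among sorted libraries for 7 of the 10 genes, within counting error for Oscar and Tnfrsf11a, and Tnfrsf11a, Calcr and Dcstamp have their highest bar in the input.

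The bone-resorbing effectors Ctsk and Acp5 were found at higher levels than the receptors Tnfrsf11a, Oscar and Calcr in all 8 libraries. Ctsk, the collagen-degrading cysteine protease cathepsin K (chr3:95499256-95509362, ENSMUSG00000028111), was among the most abundant transcripts in every library, from rank 93 of all genes in cluster 7 to rank 354 in cluster 2. Its level was 332 RPKM in C1, 144 in C2, 298 in C3, 430 in C4, 186 in C5, 111 in C6, 454 in C7 and 197 in the input. Clusters 7 and 4 were highest, clusters 2, 5 and 6 were lowest and below the input, and every sorted library had at least 3617 reads on the gene. With TMM factors the input fell to 123 RPKM of Ctsk, below clusters 2 (145 RPKM), 6 (143 RPKM) and 5 (252 RPKM). Without the abundant loci cluster 5 rose to 328 RPKM of Ctsk, above cluster 3 (308 RPKM) and the input (199 RPKM). The ratio of cluster 7 to cluster 6 was 4.10 (3.98 to 4.23). That of cluster 7 to cluster 4 was 1.05 (1.04 to 1.07) with total counts, and the order of these 2 libraries for Ctsk turned round with TMM factors (439 against 441 RPKM) and with DESeq2 size factors.

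Acp5, tartrate-resistant acid phosphatase (chr9:22126727-22135711, minus strand, ENSMUSG00000001348), followed a similar course at a lower level. It was 17.7 RPKM in C1, 14.5 in C2, 32.7 in C3, 34.5 in C4, 16.0 in C5, 12.8 in C6, 52.0 in C7 and 28.5 in the input. Cluster 7 was alone at the top, clusters 3 and 4 came next, and clusters 1, 2, 5 and 6 lay below the input, where cluster 5 (21.6 RPKM) passed the input (17.9 RPKM) with TMM factors. For Acp5, C7 was 1.51 times above C4 (1.43 to 1.59) and 4.06 times above C6 (3.76 to 4.39). Clusters 4 and 3 were not separated by counting, nor were 1 and 5 or 5 and 2, and cluster 2 became the lowest for Acp5 with TMM factors. Of the Acp5 exons, 685 bases are shared with an antisense gene that had 80 reads over all libraries, and whether counting used strand is not given in the sources used here.

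Atp6v0d2, the osteoclast isoform of the proton pump subunit d that also acts in fusion, had a pattern of its own. It lies on the minus strand at chr4:19876841-19922605 (ENSMUSG00000028238). Its level was 11.6 RPKM in C1, 1.53 in C2, 8.34 in C3, 1.67 in C4, 0.746 in C5, 0.709 in C6, 7.92 in C7 and 6.04 in the input. Clusters 1, 3 and 7 formed a high group and clusters 2, 4, 5 and 6 a low one, with a gap of 4.73 times (3.96 to 5.69) between cluster 7 and cluster 4. Cluster 1 was 1.39 times above cluster 3 (1.25 to 1.55) and 16.3 times above cluster 6 (12.6 to 21.6). Cluster 4, which had nearly as much Ctsk as cluster 7, was thus in the low group for Atp6v0d2.

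The fusion genes Dcstamp and Ocstamp, which encode multipass membrane proteins needed for precursors to merge, stayed below 1 RPKM in all sorted libraries. Dcstamp was 0.415 RPKM in C1, 0.158 in C2, 0.111 in C3, 0.0925 in C4, 0.352 in C5, 0.444 in C6, 0.725 in C7 and 3.86 in the input. The input was 5.32 times above cluster 7 (3.83 to 7.52) for Dcstamp, or 3.45 times with TMM factors, and 2.45% of the olfactory genes exceeded it there. Ocstamp was 0.0678 RPKM in C1, 0.129 in C2, 0.151 in C3, 0.202 in C4, 0.0639 in C5, 0.164 in C6, 0.535 in C7 and 0.407 in the input. Cluster 7, with 65 reads, was 2.65 times above cluster 4 (1.64 to 4.43) for Ocstamp, and no lower step exceeded counting error. In the input, 35.7% of the olfactory genes were above Ocstamp, and its cluster 5 level was below their 95th percentile in that library.

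**Figure D3:**
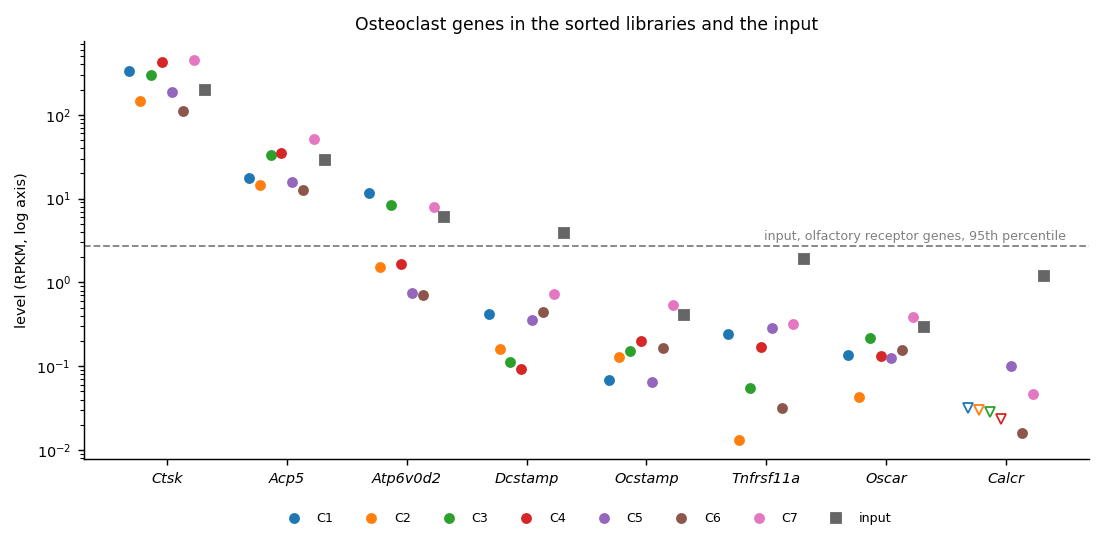
Level (RPKM, log axis) of the 8 receptor, effector and fusion genes in each sorted library (circles) and the input (squares). Open triangles mark the level of 3 reads for libraries with a count of 0, and the dashed line is the 95th percentile of olfactory receptor genes in the input, 2.75 RPKM, and applies to the squares only. The squares of Ctsk, Acp5, Atp6v0d2 and Dcstamp lie above this line, and those of Tnfrsf11a, Oscar, Ocstamp and Calcr lie below it.

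By the thresholds of the study's methods (RPKM above 2 and a fold above 2, here of RPKM + 1, which understates the change of low genes), 5 of the 10 genes passed the filter on low values in a sorted library. These were Tnfsf11, Tnfrsf11b, Ctsk, Acp5 and Atp6v0d2, and the other 5 stayed below it. All 5 differed more than 2-fold between the highest and the lowest sorted library, where 70.6% of 12360 genes did. Their median fold was 7.17, against 2.39 for all genes tested. None of the 5 exceeded the next library more than 2-fold (5.4% of the 12360 genes did). Of the 6 genes with RPKM above 2 in the input or a sorted library, Dcstamp was more than 2-fold higher in the input than in every sorted library, where 31.2% of 19088 genes were. Leaving out the cluster 5 library, or the cluster 7 library, gave the same 3 counts of 5, 0 and 1. Cluster 7 was the highest sorted library for 3 of the 5 genes that passed the filter (Tnfsf11, Ctsk and Acp5), beside 25.3% of the 12360 genes, and Ctsk left this group with TMM factors. Cluster 5 was the lowest for 46.3% of the 12360 genes. Of the 5 genes below the filter, 4 were also highest in cluster 7, but for Oscar and Tnfrsf11a that lead was within counting error. For Dcstamp the lead over cluster 6 was barely beyond it with total counts (ratio 1.63, 1.004 to 2.70). With TMM factors it narrowed to 0.700 against 0.572 RPKM. Over the 12360 genes, the median shift of log2(RPKM + 1) with TMM factors was 0.35 in C5, 0.30 in C6, -0.12 in C1 and -0.57 in the input.

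The sum of macrophage and monocyte markers was highest in cluster 7 among sorted libraries, which also led for Tnfsf11, Ctsk and Acp5 with total counts. The summed level of 8 such genes was 849 RPKM in C1, 957 in C2, 545 in C3, 1894 in C4, 1242 in C5, 1499 in C6, 3824 in C7 and 5871 in the input. Lyz2, lysozyme of myeloid cells, made up most of this sum, at 3738 RPKM in cluster 7 and 529 RPKM in cluster 3. The other libraries did not follow the sum. With total counts, cluster 6, at 1499 RPKM of the sum, was the lowest sorted library for Ctsk (111 RPKM) and Acp5 (12.8 RPKM). Cluster 3 had the lowest sum, but its Acp5 (32.7 RPKM) was above that of clusters 1, 2, 5 and 6. Cluster 7 was the highest sorted library for 7 of the 8 genes, with Mrc1 the exception, beside 25.3% of the 12360 genes. None of the 8 was at 0 in any library. Csf1r, the M-CSF receptor of osteoclast precursors, was 15.0 RPKM in cluster 7 and between 1.81 and 5.55 RPKM in the other sorted libraries. The part of these cells in the levels of Tnfsf11, Ctsk, Acp5, Ocstamp and Tnfrsf11a in cluster 7 was not tested. In bulk RNA, fewer cells of a type and less RNA per cell cannot be told apart. Of the 5 stromal markers, 2 were also highest in cluster 7 among sorted libraries, beside the same 25.3% of genes. These were Lepr at 12.4 RPKM and Pdgfrb at 64.5 RPKM. A list of 7 adipocyte-primed stromal genes summed to 94.9 RPKM in C4, 54.7 in C7 and at most 44.0 in the other sorted libraries. Of these 7 genes, 3 were highest in cluster 4, beside 8.95% of the 12360 genes, and 0 in cluster 7, beside 25.3%. The part of such cells in the Tnfsf11 values was not tested. B-cell markers summed to 95.8 RPKM in cluster 7 and to between 28.0 and 69.4 RPKM in the other sorted libraries. Of them, Cd79a was the most abundant in cluster 7 and Cd79b over all libraries. T-cell markers summed to no more than 3.51 RPKM in the sorted libraries and to 8.30 RPKM in the input.

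The factors that act inside the osteoclast precursor were examined as a list of 17 genes, of which 16 were found in the files. Of these, 12 passed the filter and all 12 differed more than 2-fold between the highest and lowest sorted library, beside the 70.6% of all genes. Fos, the AP-1 subunit induced by RANK, was the most abundant, at 2604 RPKM in C7, 2591 in C1 and 654 in C5. Tyrobp, the DAP12 adaptor for co-stimulation, was 452 RPKM in C7, 374 in C5 and 144 in C3, and was 720 RPKM in the input. Fcer1g, the FcRγ adaptor, was 213 RPKM in cluster 7 and 74.7 RPKM in cluster 3. Csf1r was the only gene of the list above the next library by more than 2-fold, beside 5.4% of all genes. Nfatc1, the master transcription factor of the osteoclast, was highest in cluster 6, at 85.4 RPKM, and 42.0 RPKM in cluster 7. Itgb3, the vitronectin receptor chain, was 12.6 RPKM in C1, 14.1 in C3, 4.12 in C7 and at most 2.91 in the other sorted libraries, where Atp6v0d2 was also low. Csf1r, Nfatc1 and Itgb3 were chosen after their values were seen.

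Among 13 genes of acid secretion and matrix degradation, all passed the filter and 8 differed more than 2-fold, beside 70.6% of all genes. Mmp14, a membrane-bound collagenase of stromal cells and osteoclasts, was highest in cluster 7, at 169 RPKM, and lowest in cluster 6, at 59.5 RPKM. Mmp9, the gelatinase made by osteoclasts and granulocytes, was 130 RPKM in C7, 84.4 in C4, 47.8 in C6, 20.4 in C5 and 8.59 in C3. Of the 4 granulocyte markers, Mpo and Elane were also highest in cluster 7 among sorted libraries, at 394 and 478 RPKM, whereas S100a8 and S100a9 were highest in cluster 5, at 7878 and 11033 RPKM, against 7151 and 10329 RPKM in cluster 7. Of all 12360 genes, 25.3% were highest in cluster 7 and 4.73% in cluster 5. The 4 granulocyte markers summed to 18352 RPKM in cluster 7, 19109 in cluster 5 and 8185 in cluster 3. The part of granulocytes in the Mmp9 value was not tested. Car2, carbonic anhydrase 2 of osteoclasts and red cells, was 102 RPKM in cluster 5 and at most 25.3 RPKM in the other sorted libraries. It was the only gene of the list above the next library by more than 2-fold, beside 5.4% of all genes. The haemoglobin gene Hba-a1 was highest in the same library, and its part in the Car2 value was not tested.

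Stroma also promotes osteoclast formation through signals other than RANKL. Of 14 such ligand genes, 12 passed the filter, all 12 differed more than 2-fold, beside 70.6% of all genes, and 7 exceeded the next library more than 2-fold (Csf1, Il11, Il1a, Il1b, Cxcl12, Ccl2 and Spp1), beside 5.4% of all genes. Spp1, the bone matrix protein osteopontin, was 2681 RPKM in cluster 6 and 194 RPKM in cluster 1. Ccl2, which attracts monocytes, was 1264 RPKM in C3, 398 in C1 and 5.66 in C6. Csf1, the M-CSF that precursors need beside RANKL, was 35.8 RPKM in C1, 5.66 in C2, 74.7 in C3, 35.3 in C4, 12.5 in C5, 6.61 in C6 and 25.1 in C7. Cluster 3, the lowest for Tnfsf11, was thus the highest for Csf1 and Ccl2. Il6, an inducer of stromal RANKL, was 190 RPKM in C4, 137 in C7 and 5.05 in C6, which gave it the 2 highest libraries of Tnfsf11 in the opposite order. Il1b was 188 RPKM in C7 and 77.8 RPKM in C4, and the input held 329 RPKM of it. Il1a and Il1b were, like Lyz2, highest in cluster 7 among sorted libraries, and the part of macrophages in their values was not tested. Cxcl12, the niche chemokine, was 139 RPKM in cluster 4 and 48.5 RPKM in cluster 7. Csf1 and Cxcl12 were chosen after their values were seen.

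Tnfsf11 is known to be induced in stroma through hormone, prostaglandin and cytokine receptors and their transcription factors. Of 15 such genes, 14 passed the filter, 10 differed more than 2-fold, beside 70.6% of all genes, and none exceeded the next library more than 2-fold, beside 5.4%. Pth1r, the parathyroid hormone receptor, was 21.8 RPKM in C1, 402 in C2, 64.6 in C3, 47.5 in C4, 41.1 in C5, 352 in C6 and 51.5 in C7. Vdr, the vitamin D receptor, was 10.6 RPKM in C6, 6.88 in C2, 6.86 in C3, 3.01 in C7 and 1.04 in C1. Both hormone receptors were therefore highest in clusters 2 or 6, where Tnfsf11 was 2.95 and 1.98 RPKM. The cytokine receptor chain Il11ra1 was 125 RPKM in C4, 88.2 in C1, 78.5 in C7 and 7.01 in C6, and Tnfrsf1a, the TNF receptor, was 89.2 RPKM in C4, 85.3 in C7 and 23.1 in C5. Vdr was chosen after its values were seen.

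**Figure D4:**
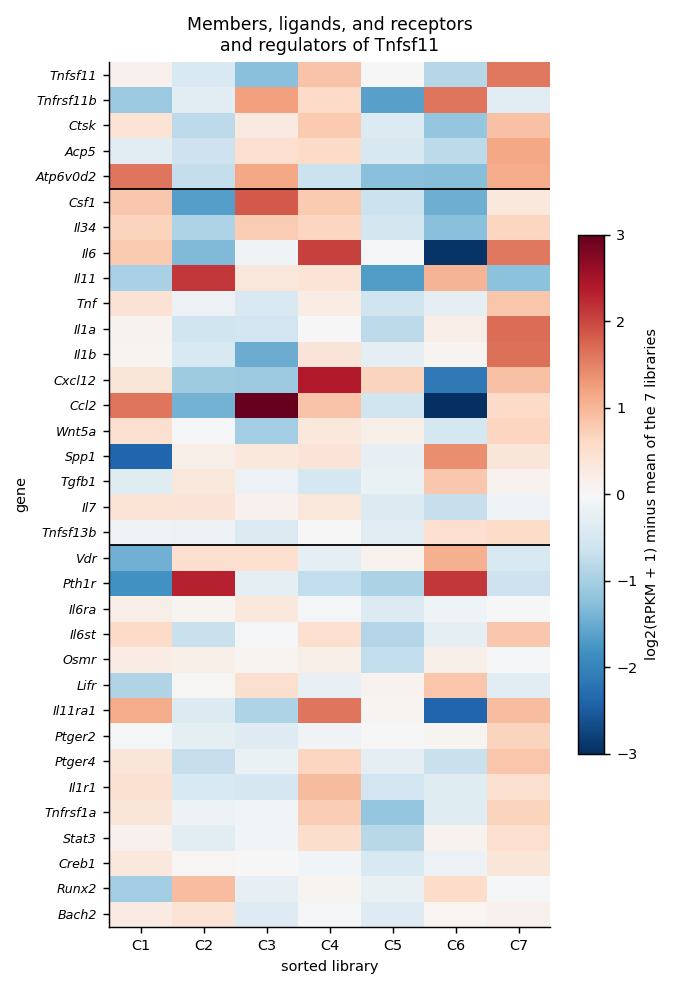
Levels in the 7 sorted libraries as log2(RPKM + 1) minus the mean of the gene over these libraries, red above and blue below, with colours saturated at 3 in either direction. From top to bottom, lines separate the 5 genes that passed the filter, the 14 ligand genes, and the 15 receptors and regulators of Tnfsf11. Tnfsf11 is red in clusters 4 and 7, Csf1 and Ccl2 are red in cluster 3, and Pth1r is red in clusters 2 and 6.

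For each of the 7 genes with at least 50 reads in its highest sorted library, the genes with the most similar course were found by Pearson's r of log2(RPKM + 1) over the 7 sorted libraries. These r values describe 7 points that share libraries, depth and base composition. Tnfsf11 was closest to Spatc1 (r = 0.98), Ptpru (0.976) and Col8a2 (0.975), the last a short-chain collagen at 87.4 RPKM in cluster 7 and 87.2 RPKM in cluster 4. Tnfrsf11b was closest to Irx3 (0.993), a homeobox factor, Amotl2 (0.981) and Bambi (0.955), a TGF-β pseudoreceptor at 41.7 RPKM in cluster 6 and 36.5 RPKM in cluster 3. Tnfsf11, Tnfrsf11b and Tnfrsf11a each kept none of their 3 genes when the cluster 5 library was left out. Ctsk was closest to C1rl (0.997), Plxdc2 (0.995) and the related protease Ctsl (0.987), which was 448 RPKM in cluster 4 and 378 RPKM in cluster 7, and 343 of 7441 genes had an r above 0.9 with it. Acp5 was closest to Apobr (0.959), Ifit1 (0.95) and Ltbp2 (0.945). Atp6v0d2 was closest to Slk (0.989), Myof (0.982) and Ccdc91 (0.977). Ocstamp was closest to Tmem154 (0.981), Ms4a6b (0.971) and Cd101 (0.966), each highest in cluster 7 among sorted libraries. Ocstamp had 65 reads in cluster 7 and at most 24 in any other sorted library, so its r rests mainly on cluster 7. Tnfrsf11a was closest to Tfpi (0.929), Tspan8 (0.929) and Cmpk2 (0.915). Among the 10 genes themselves, r was 0.868 between Ctsk and Acp5, 0.674 between Tnfsf11 and Ctsk, 0.191 between Tnfsf11 and Atp6v0d2 and -0.413 between Tnfsf11 and Tnfrsf11b.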

How the data were processed

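RNA-seq was analysed from 8 deposited tables of counts, 1 per library, with 49315 Ensembl genes and their exon lengths. Per the labels and the study's methods, the authors trimmed reads at Phred 20, aligned them with TopHat2 to mm9 and quantified them in Partek Flow; the gene coordinates in the files are those of GRCm38 (96.2% of 23310 symbols lay within 10 kb of their RefSeq position), and the counter and its strand setting are not given in the sources used here. The labels and the methods differ on RNA input.

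RPKM was computed from the deposited counts, the total count and the exon length. Genes with RPKM above 2 were compared by fold of RPKM + 1, with a limit of 2. With 1 library per group no test was made. Scaling by edgeR 4.0.16 (TMM) and DESeq2 1.42.0, a pseudocount of 0.1, other filters and leaving out a library were tried as alternatives. The count script was checked on simulated data. The reference gene tables gave symbols for 32464 of the gene identifiers. The 10 genes and all gene lists were chosen with earlier results of these data known. Of each list, a few genes with the highest RPKM were named; other list genes, cell markers and genes that make up a small count were named after their values were seen; for the similarity of pattern, genes with at least 50 reads were used and the 3 with the highest r were named. Python 3.11.15, pandas 2.3.3, scipy 1.17.1 and R 4.3.3 were used.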

Additional observations from a re-analysis of the deposited data

How the results depend on the processing

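Of 71 values recomputed under an alternative, 46 were classed as unchanged, 20 moved and 5 changed sign. A log2 ratio was unchanged if it stayed within its counting interval, whereas counts were judged by the size of their change. Leaving out cluster 5 could not alter the ratio of the highest to the next library, except for Tnfrsf11a. Such fixed values are among the 46. The sign changed for Tnfrsf11a between clusters 7 and 5, from a log2 ratio of 0.17 to -0.32 with TMM factors, -0.44 with DESeq2 size factors and -0.63 without the abundant loci, and for Ctsk between clusters 7 and 4, from 0.08 to -0.0084 and -0.056 with TMM and DESeq2 factors. The counts of genes above 2-fold between the highest and lowest library (5) and over the next library (0) held under every alternative run. With no filter on low values they were out of 10 genes, and otherwise out of 5. Beside the first count, the share of all genes was 70.6%. It ran from 28.2% with no filter to 84.6% with the pseudocount of 0.1. Beside the second count it was 5.4%, and ran from 2.5% with no filter to 7.9% without the abundant loci. The count of genes higher in the input was 2 with no filter on low values (Tnfrsf11a beside Dcstamp) and 0 with RPKM above 5. Over all genes, the input calls numbered 5953 of 19088 genes tested, against 2989 of 16268 with TMM factors and 3027 of 16352 with DESeq2 factors. With RPKM above 5 they numbered 2199 of 11019. Calls over the next library numbered 667 of 12360, against 1046 of 13229 without the abundant loci and 461 of 8277 with RPKM above 5. The log2 ratio of Tnfsf11 to Tnfrsf11b was -1.49, -3.03, -5.85, -2.40, -1.08, -5.60 and -0.67 in clusters 1 to 7 and -5.51 in the input. From counts without length it was -1.82 in C1, -3.36 in C2, -2.74 in C4, -1.41 in C5, -5.93 in C6 and -1.01 in C7. With 1 added to each RPKM it was -2.67 in C2, -5.03 in C3, -2.28 in C4, -5.02 in C6 and -4.83 in the input. Of the 21 genes named for similarity of pattern, 8 remained without the cluster 5 library and 15 with either the pseudocount of 0.1 or TMM factors. Leaving out cluster 7 was added after seeing the data. The shift without length is the same in every library, being set by the exon lengths of the 2 genes; the cause of the other shifts was not tested.

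No paired analysis was possible because each group holds 1 library. Tnfrsf11a, Oscar, Calcr, Dcstamp and Ocstamp had at most 65 reads in a sorted library, and their order there is mostly within counting error.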

Other observations

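Among the 10 genes with a Tnfsf symbol, which leave out Tnf itself, Tnfsf9, the ligand of the co-stimulatory receptor 4-1BB, had the highest RPKM in all 8 libraries, from 6.98 RPKM in cluster 6 to 89.8 RPKM in cluster 7. Tnfsf11 was the next in each sorted library except cluster 3, where Tnfsf14 (1.33 RPKM) came before it, and in the input 5 of the 10 were above it. Among 20 genes with a Tnfrsf symbol, Tnfrsf12a, the TWEAK receptor, was first in all 8 libraries, at 548 RPKM in cluster 4 and 148 RPKM in cluster 5. Tnfrsf11b came directly after it in clusters 3 and 6 and in the input, after Tnfrsf12a and Tnfrsf1a in clusters 1, 2, 4 and 5, and after Tnfrsf12a, Tnfrsf1a and Tnfrsf1b in cluster 7.

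Of 10 genes for stromal inhibitors of osteoclast formation other than Tnfrsf11b, 7 passed the filter, 6 differed more than 2-fold between the highest and lowest sorted library, beside 70.6% of all genes, and 2 exceeded the next library more than 2-fold, beside 5.4%. Both of these were highest in cluster 3: Csf2, the cytokine GM-CSF, was 40.1 RPKM there and at most 3.30 RPKM elsewhere in the sorted libraries, and Sema3a, a semaphorin that restrains osteoclasts, was 4.70 RPKM there and at most 1.71 RPKM elsewhere in them. They were named after their values were seen. Slit3 was 17.0 RPKM in cluster 4 and 4.35 RPKM in cluster 2, and Sfrp1, a secreted Wnt antagonist, was 17.1 RPKM in cluster 4 and 0.708 RPKM in cluster 6. In the input, Ifnb1, at 3.97 RPKM, and Il10, at 7.27 RPKM, were more than 2-fold above every sorted library in RPKM + 1, as were 31.2% of all genes tested. With TMM factors the fold of Ifnb1 was 2.49 and that of Il10 was 1.75, so the latter was no longer past the limit.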
